A study of Homo sapiens with 2 samples.

Results

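The 10 genes described here encode 6 Toll-like receptors (TLR2, TLR3, TLR4, TLR5, TLR6 and TLR7), the adaptors MYD88 and TICAM1, the kinase IRAK1 and the ubiquitin ligase TRAF6. They are 10 of the 19775 genes that have a probe set named for 1 gene on this array, and all 19 probe sets annotated to 1 of them alone were taken. No probe set was shared between 1 of the 10 and another gene. RNA came from Huh-7, a human hepatoma cell line widely used as a host for hepatitis C virus, and each condition had 1 flask and 1 Affymetrix expression array. Both flasks were first incubated for 24 hours. The treated flask was then given fresh medium with 100 U/mL of recombinant human interferon-alpha 2b and was exposed for 6 hours. The untreated flask had its medium exchanged, and no source used here gives its harvest time. The comparison asks which transcripts of this cell line differ after interferon-alpha. With 1 array per condition no difference has a replicate check and no test can be made.

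Toll-like receptors are membrane proteins that recognise conserved microbial molecules. TLR2, TLR4, TLR5 and TLR6 act at the cell surface on bacterial lipoproteins, lipopolysaccharide and flagellin, whereas TLR3 and TLR7 act in endosomes on double-stranded and single-stranded RNA. All of the 6 except TLR3 signal through MYD88, which recruits IRAK kinases and TRAF6 and leads to NF-kB. TLR3 signals through TICAM1 (TRIF), which TLR4 also uses, and leads to IRF3 and type I interferon.

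Among the 10 genes 1 differed by more than 2-fold. MYD88 was 2.43-fold brighter on the interferon array, while TICAM1, IRAK1, TRAF6 and TLR2 lay between 1.05-fold and 1.31-fold and TLR3, TLR4, TLR5, TLR6 and TLR7 were dim on both arrays. Dim here means below an intensity of 48.46, which is the 50th percentile of the pooled values of the 2 arrays after control probe sets were left out. Values below this floor were raised to it before ratios were taken, and a gene was counted if its brightest probe set was above the floor on at least 1 array. Of the 10 genes, 5 were counted, and 1 of them passed 2-fold upward with interferon and 0 passed it downward. Among all 13269 counted genes 57 passed 2-fold upward (0.430%) and 0 passed it downward (0%). The 5 counted genes had a median log2 ratio of 0.15, and all counted genes had one of 0.03.

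Promoter sequences are shown for MYD88, the gene with the difference, and for TLR3, because each holds the core letters of an interferon-stimulated response element (ISRE), a motif found in promoters of many interferon-induced genes. They are taken from RefSeq on GRCh38.p14, in which 9 of the 10 genes had an entry of 300 bases, from 250 before to 50 after the annotated start. TLR7 is the gene without one. The letters searched were GAAANNGAAA on both strands. They occurred in 2 of the 9 entries and in 1255 of 35116 entries of all genes (3.57%). The letters TTCNNNGAA, the core of another interferon-related motif, called GAS, occurred in the same 2 of the 9 and in 7.66% of all entries. The motifs were chosen after the values were seen, and a match is a description of letters, not of binding. Each sequence is read 5′ to 3′ on the gene's strand, which is the plus strand for both, and capitals mark the ISRE core. The MYD88 stretch lies at chr3:38138411-38138660 and ends at the base before the start. The TLR3 stretch lies at chr4:186068906-186069161 and ends 6 bases into the transcript.
MYD88: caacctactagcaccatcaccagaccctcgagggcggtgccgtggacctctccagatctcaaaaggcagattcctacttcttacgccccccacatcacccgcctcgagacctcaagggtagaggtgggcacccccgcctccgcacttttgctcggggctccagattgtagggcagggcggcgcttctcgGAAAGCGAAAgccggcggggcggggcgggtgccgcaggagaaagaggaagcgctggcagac
TLR3: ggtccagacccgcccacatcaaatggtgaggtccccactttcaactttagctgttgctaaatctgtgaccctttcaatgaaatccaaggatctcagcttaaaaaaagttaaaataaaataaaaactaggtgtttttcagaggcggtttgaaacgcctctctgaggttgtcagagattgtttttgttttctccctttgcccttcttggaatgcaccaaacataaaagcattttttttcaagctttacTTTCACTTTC
In MYD88 the match is on the plus strand and covers positions -61 to -52 from the start. A GAS core at -67 to -59 overlaps it. In TLR3 the ISRE core is on the minus strand and covers positions -4 to 6, and 2 GAS cores lie at -178 to -170 and -50 to -42. The 2 genes with these letters differed in brightness, MYD88 being above the floor on both arrays and TLR3 below it on both. This does not compare their response to interferon, since TLR3 has no ratio above the floor.

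The treated flask showed the interferon response, with ISG15 at 8332 on the interferon array and 351.2 on the untreated array, and IFIT1 at 3125 and 25.3. Hepatocyte genes were bright on both arrays. The 9 of 10 listed hepatocyte markers with a named probe set had intensities of 3223 to 14588 with interferon and 3000 to 12212 untreated, ALB and AFP among them. Of 8 named leukocyte markers, 4 stayed under the floor on each array, including the pan-leukocyte gene PTPRC at 17.0 with interferon and 19.2 untreated. The other 4, CD14, CSF1R, ITGAM and CD79A, lay between 76.5 and 100.6 with interferon and between 66.3 and 104.9 untreated. The summed level of the leukocyte list was 414.4 with interferon and 431.3 untreated. Of 5 endothelial markers, CDH5, TEK and KDR stayed under it on each array. PECAM1 had 152.4 with interferon and 158.0 untreated, and VWF had 49.99 with interferon and 67.08 untreated (log2 -0.42).

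The surface receptors gave little signal on either array. TLR2, which pairs with TLR1 or TLR6 to bind bacterial lipoproteins, had an intensity of 52.3 on the interferon array and 48.8 on the untreated array, a log2 ratio of 0.10. Both values were barely above the floor, and the untreated value equalled the median of that array. With the floor at the 60th percentile (73.8) TLR2 was below it on both arrays too. TLR4, the lipopolysaccharide receptor, had 4 probe sets, all below the floor on both arrays. Its brightest had 22.3 with interferon and 22.9 untreated, and the other 3 lay between 7.67 and 10.9 with interferon and between 7.67 and 12.2 untreated. TLR5, the flagellin receptor, had 24.6 with interferon and 22.7 untreated on its single probe set. TLR6 had 2 probe sets, with 25.3 and 15.8 on the interferon array, against 33.8 and 17.2 on the untreated array. The brighter TLR6 probe set had the lowest ratio of the receptor probe sets in the deposited values (log2 -0.42), with both readings below the floor. It was above the floor on the untreated array only when the floor was set at the 40th percentile.

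The endosomal receptors were also under the floor. TLR3, the receptor for double-stranded RNA, had 11.0, 11.1 and 10.0 on its 3 probe sets with interferon, against 7.95, 9.73 and 9.75 untreated. These readings stood between the 9.5th and 12.6th percentiles of all probe sets on the interferon array, against the 2.7th and 8.2th percentiles on the untreated array. All 3 were higher with interferon, by 0.47, 0.19 and 0.04 on the log2 scale of the deposited values, and the last 2 of these are smaller than the 0.43 by which the array's hybridisation controls differed. For comparison, the central 95% of all named probe sets below the floor on both arrays lay between -0.39 and 0.33. The first of the 3 was above that range and the other two inside it, at intensities far under the floor. The brighter TLR6 probe set, at -0.42, was below the range. TLR7, which recognises single-stranded RNA, had 30.5 and 8.58 with interferon and 29.0 and 8.20 untreated.

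In total 12 of the 13 receptor probe sets were below the floor on both arrays, where 41.9% of all probe sets named for 1 gene were. Among these 12, 6 were higher, 5 lower and 1 equal with interferon in the deposited values. By gene, 5 of the 6 receptors were below the floor, against 32.9% of all genes. Of the rest of the human family TLR1, TLR8 and TLR10 stayed below the floor on each array, and TLR9, a receptor for unmethylated DNA, had 48.9 with interferon and 61.1 untreated (log2 -0.32). Of all 10 Toll-like receptor genes, 8 were therefore below the floor on both arrays, and no probe set of the family read above 52.3 with interferon or above 61.1 untreated. TLR1, TLR6 and TLR10 are close relatives in sequence, so cross-hybridisation between their probe sets cannot be judged here. A low reading can come from a weak probe set as well as from little transcript, and these were not told apart. In RNA from a whole culture, fewer cells with a transcript and less of it per cell cannot be told apart either.

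**Figure D1:**
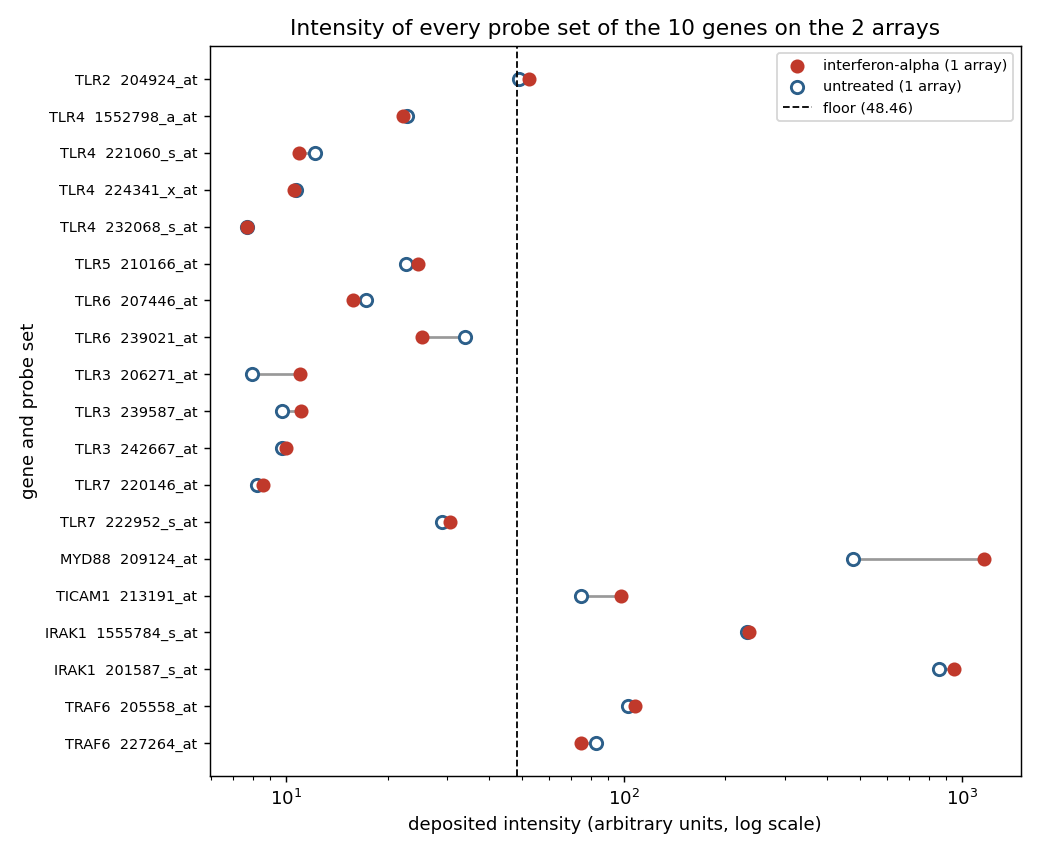
Deposited intensity (log axis) of each of the 19 probe sets on the interferon array (filled) and the untreated array (open), 1 array each, with the floor of 48.46 as a dashed line. The 12 receptor probe sets other than that of TLR2 lie left of the floor on both arrays, and MYD88 has the widest gap among the probe sets right of it, with 1162 on the interferon array and 478.3 on the untreated array.

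The adaptors differed in their readings. MYD88, which links every Toll-like receptor of the family except TLR3, and also the interleukin-1 receptor family, to IRAK kinases, had 1162 on the interferon array and 478.3 on the untreated array. The ratio was 2.43-fold (log2 1.28), and it ranked as number 45 from the top among the 13269 counted genes. It rests on 1 probe set, which stood at the 95.6th percentile of the interferon array and the 89.3th percentile of the untreated array. When the 12742 genes that exceeded the floor on each array were ranked by mean intensity and divided into 10 groups of like size, the central 95% of log2 ratios in the group that holds MYD88 lay between -0.08 and 0.27, which is a spread across genes and not a replicate error. After centring on the hybridisation controls MYD88 was 1.81-fold higher and no longer past 2-fold.

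TICAM1, the adaptor of TLR3 and of endosomal TLR4, had 98.1 on the interferon array and 74.7 on the untreated array. Its ratio was 1.31-fold (log2 0.39), from 1 probe set. The central 95% of genes in its brightness group lay between -0.38 and 0.32, so TICAM1 was just above that range, and 98.5% of counted genes had a lower ratio. Its sign turned after centring on the hybridisation controls (log2 -0.035). The gap between the MYD88 and TICAM1 ratios could not be tested with 1 array per condition.

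The shared signalling enzymes had similar readings on both arrays. IRAK1, the kinase recruited by MYD88, had 949.6 with interferon and 855.5 untreated on its brighter probe set (log2 0.15), and 234.8 with interferon and 231.3 untreated on the other (log2 0.02). TRAF6, the ubiquitin ligase activated downstream of IRAK1, had 107.7 with interferon and 103.1 untreated on one probe set (log2 0.06), and 74.6 with interferon and 82.6 untreated on the other (log2 -0.15). The 2 TRAF6 probe sets thus lay on opposite sides of 0. All 4 log2 ratios were within the central 95% of genes above the floor on both arrays, -0.29 to 0.30. Over 5912 genes read by more than 1 such probe set, the probe sets of a gene spanned 0.14 on the log2 scale in the median.

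The 18 probe sets of the hybridisation controls, bacterial and phage transcripts added to the labelled sample, each read brighter with interferon, and their median log2 ratio was 0.43. After centring on them the 12742 genes that exceeded the floor on each array had a median log2 ratio of -0.39, against 0.04 with the deposited scaling. Relative to that median the log2 ratio was the same under the deposited scaling and after this centring, which differ by a constant. It was 1.24 for MYD88, 0.36 for TICAM1, 0.11 for IRAK1, 0.06 for TLR2 and 0.03 for TRAF6. Quantile and lowess scaling are not covered by this. The sign of the 4 small ratios is not settled, because the centring put all 4 below 0. Taking them relative to the median does not settle it, with 1 array per condition and the 2 TRAF6 probe sets on opposite sides of 0.

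**Figure D2:**
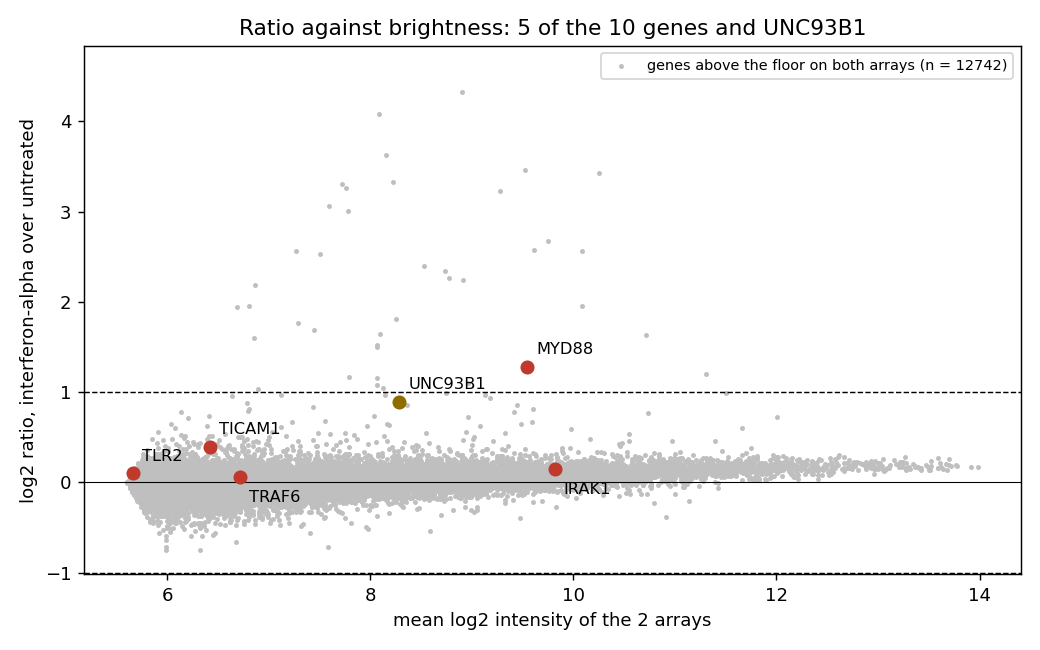
Log2 ratio of interferon over untreated against the mean log2 intensity of the 2 arrays for the 12742 genes that exceeded the floor on each array (grey), with 5 of the 10 genes in red and UNC93B1 in brown. Dashed lines mark 2-fold. MYD88 lies above the 2-fold line at 1.28, UNC93B1 just under it at 0.90, TICAM1 at the upper edge of the grey band at 0.39, and IRAK1, TRAF6 and TLR2 inside the band.

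A list of 45 other genes of the pathway gave the setting of these values. Of its 41 genes with a named probe set 33 were counted and 8 stayed below the floor. At 2-fold 0 were higher and 0 were lower, and at 1.5-fold 1 was higher and 0 were lower, where 0.754% of all counted genes passed 1.5-fold upward and 0.0829% downward. With the deposited scaling 15 log2 ratios were above 0, 16 below and 2 at 0, with a median of 0.00 against 0.03 for all counted genes. The gene past 1.5-fold was UNC93B1, a chaperone that carries TLR3, TLR7 and TLR9 to endosomes. It had 425.9 with interferon and 228.8 untreated, or 1.86-fold (log2 0.90). Its other probe sets had 232.0 with interferon and 183.9 untreated, and 53.5 with interferon and 47.8 untreated, the last being below the floor. All 3 were brighter with interferon under the deposited scaling, but the brightest decided the size, since the median of its probe sets was 0.34. After centring on the hybridisation controls the brightest probe set of UNC93B1 was at 0.47. The other probe sets had log2 ratios of 0.34 and 0.14 before centring. Both are smaller than the 0.43 that the centring subtracts, so both fall below 0 after it.

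Of the partners that help the surface receptors bind lipopolysaccharide, LY96 was dim on both arrays. CD14 and LBP read somewhat lower with interferon under the deposited scaling. LY96 (MD-2), which binds lipopolysaccharide with TLR4, had 8.01 with interferon and 8.70 untreated. CD14, a lipopolysaccharide co-receptor, had 76.5 with interferon and 91.1 untreated (log2 -0.25). LBP, the lipopolysaccharide-binding protein of plasma, had 37.5 with interferon, below the floor, and 56.9 untreated. HSP90B1, the chaperone needed to fold most Toll-like receptors, had 2090 with interferon and 1780 untreated (log2 0.23), and it was among the 5 brightest of the list. The others of those 5 were UBE2N, the conjugating enzyme that works with TRAF6 (log2 0.13), the TAK1-binding protein TAB3 (0.09), the transcription factor IRF3 (0.13) and the IRAK-modifying ligase PELI1 (0.06).

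By role, the 4 counted adaptors and inhibitors (TIRAP, SARM1, TOLLIP and SIGIRR) had log2 ratios from -0.16 to -0.07 on the brightest probe set of each. The 2 SIGIRR probe sets lay on opposite sides of 0 (-0.09 and 0.08). The 3 counted for TIRAP ran from -0.22 to 0, and the 3 counted for TOLLIP were all below 0. The 6 counted kinases ran from -0.16 for IKBKE to 0.29 for CHUK, with TBK1 at 0.07. The 12 counted ubiquitin and scaffold genes ran from -0.13 for TAB1 to 0.37 for TNFAIP3, the NF-kB target that encodes the inhibitor A20. The 4 counted transcription factors ran from -0.03 for IRF5 to 0.13 for IRF3, and IRF7, the factor on which TLR7 acts through MYD88, stayed below the floor, at 39.8 with interferon and 41.1 untreated. TICAM2, IRAK4, RIPK1 and UBE2V1 are not analysed here.

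**Figure D3:**
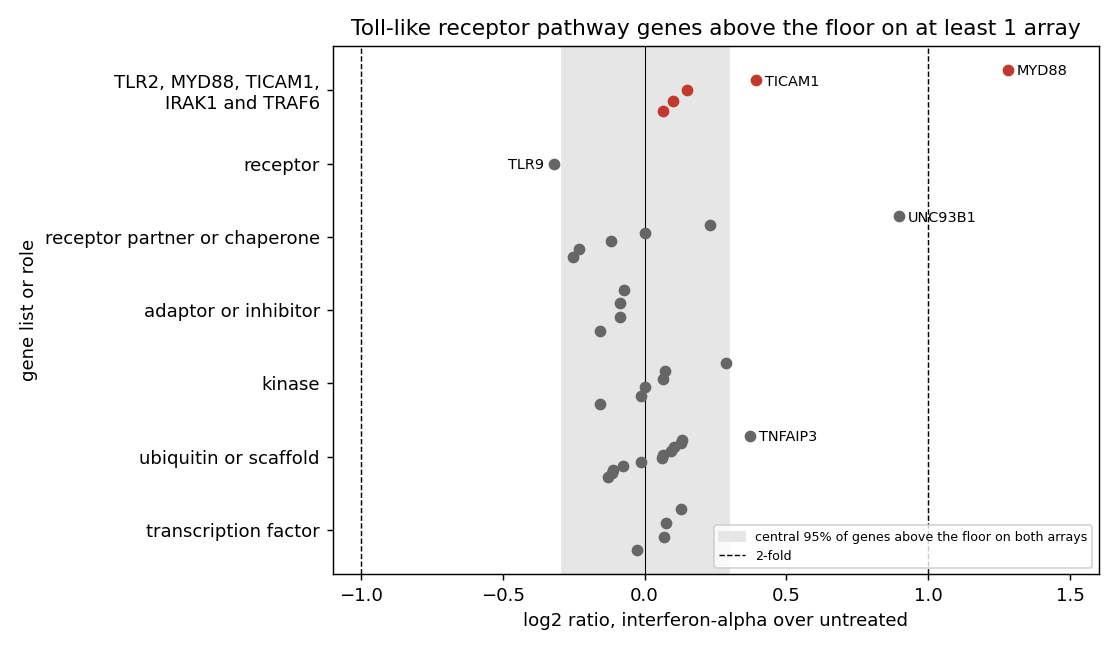
Log2 ratio of interferon over untreated for the 5 counted genes of the 10 (red) and the 33 counted genes of the pathway list by role (grey), 1 point per gene. The shaded band is the central 95% of genes above the floor on both arrays (-0.29 to 0.30) and the dashed lines are 2-fold. MYD88 is the only point past 2-fold, followed by UNC93B1 at 0.90, TICAM1 at 0.39 and TNFAIP3 at 0.37. TNFAIP3 lies above the shaded band but just inside the central 95% of its own brightness group.

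The genes whose pair of readings was nearest to that of MYD88 were sought among genes that exceeded the floor on each array, by Euclidean distance in log2 intensity over the 2 arrays. The 5 nearest were GNB4, NCOA7, CNP, RBCK1 and EHD4, at distances of 0.33 to 0.46. Their ratios lay between 1.57-fold and 1.81-fold, all under that of MYD88. The same readings give both the distance and the ratio, so raised ratios in these 5 genes follow from how they were picked. The likeness depends on how bright each probe set is and rests on 2 arrays. Intensities of different probe sets are not ordered here as transcript levels.

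**Figure D4:**
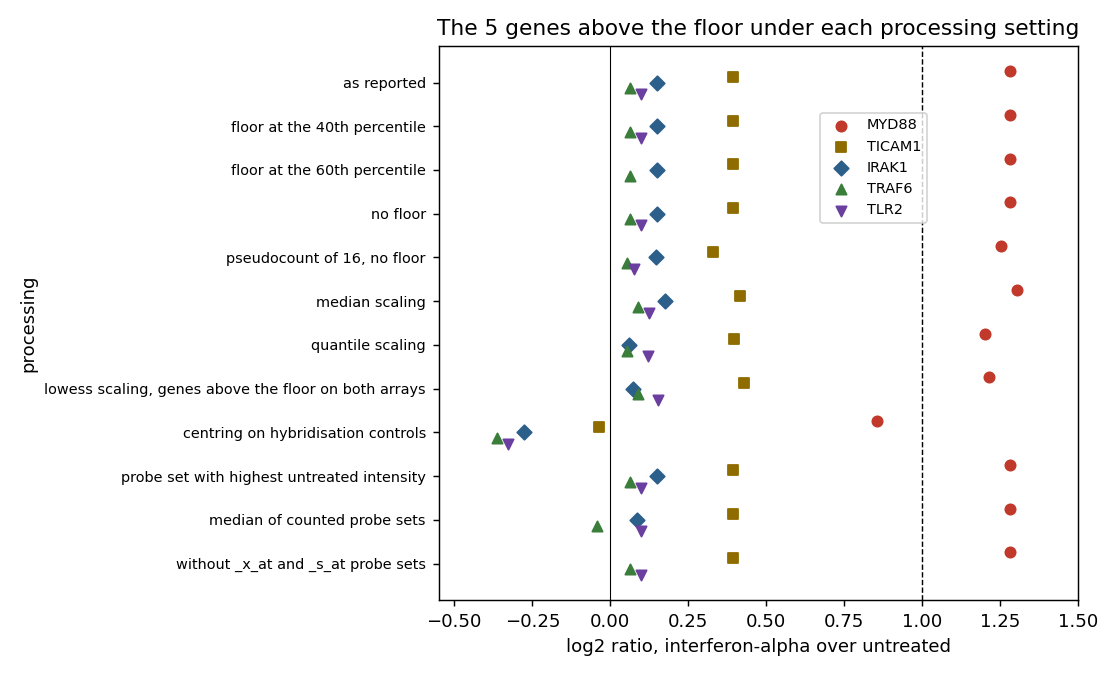
Log2 ratio of interferon over untreated for the 5 counted genes under the reported processing and 11 alternatives, 1 row each, with 2-fold as a dashed line. MYD88 stays between 1.20 and 1.30 except after centring on the hybridisation controls (0.85), where the other 4 genes lie below 0. The rows for other floors or choices of probe set could not move MYD88, which has 1 probe set far above every floor. TRAF6 also lies below 0 as the median of its probe sets, TLR2 has no point at the 60th percentile floor, and IRAK1 has none in the last row.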

How the data were processed

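The authors deposited 1 linear intensity for each probe set on each array. GCOS, the scanner software of Affymetrix, made them, per the submitters' processing notes. Its version, and how background, probe summary and scaling were handled, are not given in the sources. The labelled cRNA came from 6 µg of total RNA, per the labels' protocols. The table holds 54675 probe sets, 62 of them controls. The number of arrays limits the precision.

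Names came from the platform's annotation table. Of the 54613 others, 41091 had 1 gene, 1801 several and 11721 none named. For 41037 the symbol was found through the gene ID, whether or not this changed it. Each gene was read by its brightest probe set (mean log2 intensity of the 2 arrays), a choice in which a rising probe set gains rank. Values below the floor were raised to it, and the log2 ratio of interferon over untreated was taken in Python 3.11.15 with pandas 2.3.3. Lowess used statsmodels 0.14.6. The ratio step was tested on simulated data.

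The 10 genes and the lists were chosen with earlier results of these data known. The text names all 10 genes, list genes past 1.5-fold, the 5 brightest of the pathway list, the other receptors, 3 receptor partners and the 5 genes most like MYD88. Other list genes were named after their values were seen, as ends or examples of a role.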

Additional observations from a re-analysis of the deposited data

How the results depend on the processing

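The alternatives were floors at the 40th and 60th percentiles, no floor, a pseudocount of 16, median, quantile and lowess scaling, centring on the hybridisation controls, the probe set brightest when untreated, the median of probe sets, leaving out probe sets ending in _x_at or _s_at, and a threshold of 1.5-fold. MYD88 was at least 2-fold higher in 10 of 11 alternatives to its ratio, with log2 ratios of 0.85 to 1.30. Most of these could not move it, because its 1 probe set lies far above every floor. Its ratio stayed at 1.28 under each floor, with no floor and under each choice of probe set. Only the pseudocount, the scalings and the centring could change it, and the centring took it under 2-fold. Of the 10 genes, 0 were at least 2-fold lower in any of the 12 alternatives to that count. Centring on the hybridisation controls gave log2 ratios of 0.85 for MYD88, -0.035 for TICAM1, -0.28 for IRAK1, -0.36 for TRAF6 and -0.33 for TLR2, with 0 of the 10 genes at least 2-fold higher. It subtracts 0.43 from every ratio. The same centring gave 13 genes of all at least 2-fold lower, and the 40th percentile and no floor gave 1 each. At 1.5-fold 100 of all genes were higher and 11 lower, and 1 of the other pathway genes was higher. Of the 10 genes, 4 were below the floor on both arrays at the 40th percentile and 6 at the 60th. TRAF6 was at -0.04 as the median of its probe sets. IRAK1 and UNC93B1 had no probe set left without those ending in _x_at or _s_at, and genes below the floor have no lowess value. No paired analysis was possible because each condition has 1 array. Signal near the floor limits TLR2, and single probe sets limit MYD88, TICAM1, TLR2 and TLR5. The cause of the shift of the controls was not tested.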

Other observations

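The deposited values carry marks of their making that touch several of these genes. Both MYD88 values end in the decimals 316231, so that the arrays differ by exactly 684 intensity units. In the dimmer IRAK1 probe set the values end in 816231 with interferon and 316231 untreated, a difference of 3.5. Of the 54675 probe sets, 1853 on the interferon array and 1862 on the untreated array end in 1 of these 2 sets of decimals (3.39% and 3.41%). The TLR2 value was held by 21 probe sets to all decimals on each array, and that of the TLR3 probe set at 10.0 with interferon and 9.75 untreated by 55 on the interferon array and 41 on the untreated array. The dimmest TLR4 probe set had the same value, 7.67, on both arrays. In all, 2361 probe sets (4.32%) had equal values on the 2 arrays, at whatever intensity. How such values arose is not given in the sources used here and was not tested.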
